A study of Mus musculus with 6 samples.

Results

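The subject is 8 genes of the urea cycle and of periportal nitrogen handling in mouse liver, chosen by symbol from the 43346 Ensembl gene IDs of each library: Nags, Cps1, Slc25a15, Otc, Ass1, Asl, Arg1 and Gls2. Each symbol matched 1 gene ID, and all 8 passed the filter on low counts. Counts of RNA-seq reads per gene were taken from the liver of 3-month-old C57BL6 mice. The design had 3 libraries labelled as double knockouts (DKO), in which hepatocytes were to lack β-catenin (gene Ctnnb1) and γ-catenin (gene Jup), and 3 Control libraries. The labels do not name the Cre driver or the alleles of either group, and they do not say whether libraries are separate animals. The p-values below therefore cover the spread among libraries, which may be technical. Whole liver also holds cells that the deletion would not touch.

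The urea cycle turns ammonia, which is toxic, into urea, and the liver is the organ that runs it in full. Its first steps lie in the mitochondrial matrix and its later steps in the cytosol, with a carrier that exchanges ornithine and citrulline between them. Hepatocytes around the portal vein carry most of the cycle together with liver-type glutaminase, whereas the last hepatocytes before the central vein capture leftover ammonia as glutamine through glutamine synthetase (Glul), a gene that depends on Wnt and β-catenin. The enzymes rank among the most abundant proteins of hepatocytes, and their transcripts among the more abundant ones.

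Promoters of 4 of the 8 genes (Otc, Nags, Ass1 and Slc25a15) are held in the RefSeq promoter table (GRCm38.p6), which gives 250 bases before to 50 bases after each start site. The sequences of 3 of them are shown because they run from nearly free of CG dinucleotides to rich in them. Capitals mark CG dinucleotides. The Otc promoter is at chrX:10252055-10252354 on the plus strand, that of Nags at chr11:102145263-102145562 on the plus strand, and that of Ass1 at chr2:31470020-31470319 on the plus strand.
Otc: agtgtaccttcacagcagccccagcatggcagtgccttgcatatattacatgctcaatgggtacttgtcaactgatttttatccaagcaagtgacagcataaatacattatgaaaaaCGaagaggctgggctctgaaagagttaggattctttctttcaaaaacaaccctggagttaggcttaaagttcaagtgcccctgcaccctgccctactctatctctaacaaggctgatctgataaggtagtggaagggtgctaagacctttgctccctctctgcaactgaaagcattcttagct
Nags: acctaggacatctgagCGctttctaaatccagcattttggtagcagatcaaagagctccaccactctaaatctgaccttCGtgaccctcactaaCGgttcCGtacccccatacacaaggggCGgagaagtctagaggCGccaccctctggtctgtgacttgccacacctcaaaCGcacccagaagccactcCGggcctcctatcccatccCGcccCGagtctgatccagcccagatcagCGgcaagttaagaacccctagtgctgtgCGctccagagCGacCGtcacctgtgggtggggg
Ass1: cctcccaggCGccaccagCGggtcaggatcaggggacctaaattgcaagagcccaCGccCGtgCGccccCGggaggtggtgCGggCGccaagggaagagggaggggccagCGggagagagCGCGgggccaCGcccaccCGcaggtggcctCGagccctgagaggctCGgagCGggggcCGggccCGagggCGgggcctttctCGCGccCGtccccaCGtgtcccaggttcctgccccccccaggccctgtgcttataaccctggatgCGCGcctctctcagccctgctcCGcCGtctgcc
The Otc window holds 1 CG and 44.3% G and C. Only 5.43% of the 32851 promoter windows in the table have fewer CG dinucleotides. Nags holds 14 CG dinucleotides and Ass1 27, and 63.7% and 84.5% of all windows have fewer. The window of Slc25a15 nearest to its annotated start (chr8:22398572-22398871, minus strand) holds 15. A second window of Slc25a15 (chr8:22398228-22398527, minus strand) holds 51, and 99.3% of all windows have fewer. Motifs were searched on both strands by exact letters. A TATA box (TATAAA, in 13.6% of all windows), a CCAAT box (CCAAT, 37.4%), a C/EBP motif (TTGCNNAA, 10.8%) and a glucocorticoid receptor half-site (AGAACA, 19.0%) were not found in the windows of the 4 genes. One nuclear receptor half-site (AGGTCA, 16.3% of all windows) lay in Nags, read as TGACCT from base -178 relative to the start site. The GC box (GGGCGG, 35.7% of all windows) lay in Ass1 once and in Nags at bases -132 and -41, and was absent from Otc. In Slc25a15 it lay 3 times in the window nearest to the annotated start and 5 times in the second. These matches describe the letters only.

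The DKO-labelled libraries were shallow and held little liver RNA. They had 309731, 525037 and 1491237 reads in genes in replicates 1, 2 and 3, against 12320487 to 15869639 in Control libraries. Albumin (Alb), the main plasma protein of hepatocytes, took 0.0933%, 3.08% and 0.322% of gene reads in DKO replicates 1, 2 and 3, against 6.58% to 7.66% in Control, and mitochondrial genome transcripts took 6.27%, 14.4% and 62.7% against 6.34% to 6.57%. The 6 hepatocyte markers summed to 1747, 41390 and 4380 CPM (reads scaled to a fixed number of gene reads per library) in the DKO-labelled libraries and to at least 88260 CPM in each Control library. The targeted transcripts were counted at 0, 52 and 65 reads (Ctnnb1) and 6, 1 and 11 reads (Jup) in DKO replicates 1, 2 and 3, against 2650 to 2945 and 196 to 339 in Control. Neither passed edgeR's quasi-likelihood test (adjusted p = 0.171 and 0.0847). Both passed it as lower without DKO replicate 1 (adjusted p = 0.0119 and 0.0434), beside 22% of genes. Ctnnb1 passed as lower in DESeq2 (0.0456), beside 17.7% of its tested genes. Jup passed as lower after background subtraction (0.0104), beside 20.8% of genes. Its 6, 1 and 11 reads lay below the 10.6, 9.34 and 20.45 expected from background, so the subtraction itself set that result. With libraries scaled on abundant liver genes the log2 fold change was 0.897 for Ctnnb1 (adjusted p = 0.608 in edgeR's test). For Jup it was 3.91, which passed as higher (0.043), beside 9735 of 15561 genes. At the Control proportion to abundant liver transcripts, 52.2 and 13.9 liver reads of Ctnnb1 were expected in DKO replicates 2 and 3, besides 7.56 and 18.8 from background. For Jup, 4.95 and 1.31 liver reads were expected there, besides 9.34 and 20.45 from background. Its 1 and 11 reads thus lay below the background alone, as did most genes silent in Control. Directions are therefore between libraries as labelled, and in whole tissue fewer hepatocytes and less RNA per hepatocyte cannot be told apart.

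The 8 genes together took a smaller part of the reads in each DKO-labelled library than in any of the Control libraries. They held 129, 2540 and 1327 reads in DKO replicates 1, 2 and 3, against 140730, 130776 and 119168 in Control replicates 1, 2 and 3. As a share of gene reads this was 0.0416%, 0.484% and 0.0890% in the DKO-labelled libraries and 0.887%, 0.937% and 0.967% in Control. The difference of -0.726 percentage points had p = 0.1 by exact permutation, two-sided, over 20 arrangements, the smallest p that 3 against 3 libraries allow. DKO replicate 2 stood nearest to Control, and DKO replicate 1 farthest. Each of the 8 genes had a lower CPM in all DKO-labelled libraries than in any Control library. The same held for 29.6% of all 15561 tested genes and for 69.8% of the 3206 with a mean of at least 50 TMM-scaled CPM in Control, so it was the common pattern at this level. Albumin and the hepatocyte marker sum had the same order over the DKO-labelled libraries, replicate 2 highest and replicate 1 lowest, and their part in the difference was not tested.

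**Figure D1:**
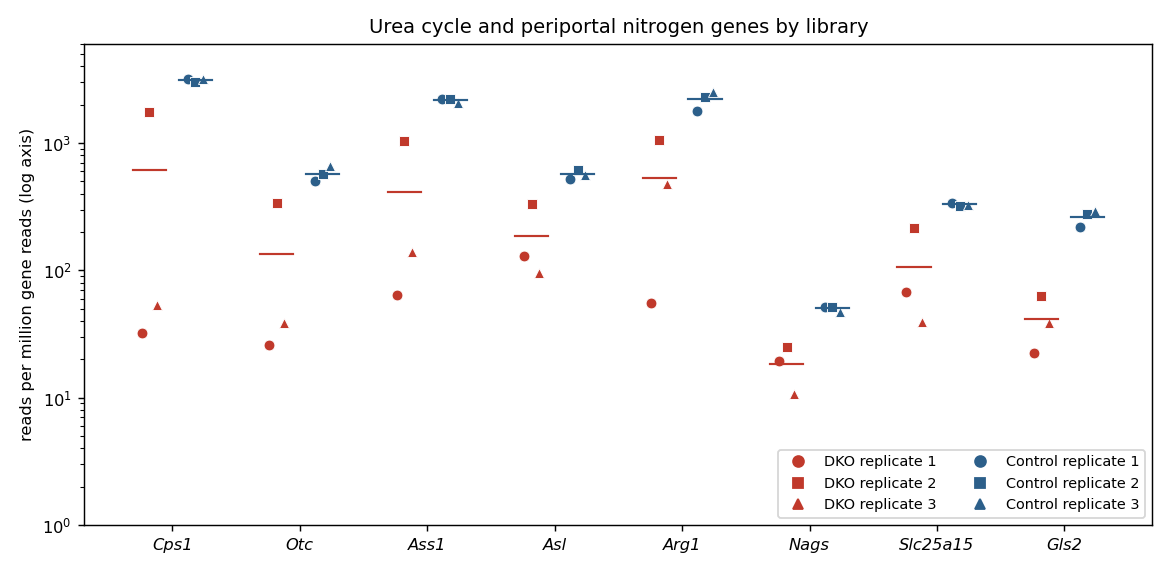
Level in CPM over gene reads (log axis) of the 8 genes in each of the 6 libraries, DKO-labelled libraries in red left of Control libraries in blue, with bars at the group means. Every DKO-labelled library lies below every Control library for each gene, and on this scale replicate 2 is the highest of the DKO-labelled libraries for each gene; with TMM, Gls2 is higher in DKO replicate 3 (62.75 CPM) than in DKO replicate 2 (56.8 CPM).

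Nags (ENSMUSG00000048217, chromosome 11, 102145513 to 102149477, mm10), whose product makes the N-acetylglutamate that switches on carbamoyl phosphate synthetase, had 6, 13 and 16 reads in DKO replicates 1, 2 and 3, against 822, 723 and 581 in Control replicates 1, 2 and 3. Scaled by the trimmed mean of M-values (TMM), its level was 15.8 ± 7.48 CPM in DKO-labelled libraries and 63.0 ± 2.77 CPM in Control (SD, n = 3 each). The groups did not overlap, and Nags fell with a log2 change of -2.01 (SE 0.59, adjusted p = 0.0213 in edgeR's quasi-likelihood test). The antisense gene Gm11586 shares 445 bases with Nags and had 0, 3 and 0 reads in DKO-labelled libraries against 79 to 122 in Control. Since the strand setting is not given, reads of the pair cannot be told apart.

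Cps1 (ENSMUSG00000025991, chromosome 1, 67123026 to 67231259), which makes carbamoyl phosphate from ammonia in the first and rate-limiting step, had 10, 926 and 79 reads in DKO replicates 1, 2 and 3, against 50789, 42337 and 39502 in Control replicates 1, 2 and 3. Its TMM-scaled level was 563.6 ± 891.9 CPM in DKO-labelled libraries and 3947 ± 137 CPM in Control (SD, n = 3 each). The SD of the DKO-labelled libraries exceeded their mean because replicate 2 alone, at 1593 CPM, lay far above 12.7 and 85.5 CPM in replicates 1 and 3. The log2 fold change of -2.81 (SE 1.73) did not pass the threshold (adjusted p = 0.197 in edgeR's test). Without DKO replicate 2 it was -6.48, with an adjusted p of 0.00928. Among all genes of a library, Cps1 ranked 38 by reads in DKO replicate 2, close to ranks 34 to 36 in Control, but 5682 in DKO replicate 1 and 1077 in DKO replicate 3.

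Slc25a15 (ENSMUSG00000031482, chromosome 8, 22375551 to 22398597), the carrier that brings ornithine in and citrulline out, had 21, 112 and 59 reads in DKO replicates 1, 2 and 3, against 5397, 4493 and 4019 in Control. Otc (ENSMUSG00000031173, chromosome X, 10252305 to 10321024), which joins carbamoyl phosphate and ornithine to citrulline, had 8, 179 and 58 reads in DKO replicates 1, 2 and 3, against 7924, 7968 and 8068 in Control. Both genes were thus lower in each DKO-labelled library than in each Control library, as for Cps1 with replicate 2 highest. Slc25a15 had a log2 change of -2.13 (adjusted p = 0.109 in edgeR's test) and Otc one of -2.51 (SE 1.29, adjusted p = 0.134), so neither passed. Without DKO replicate 2 these became -3.35 and -4.46, with adjusted p of 0.0135 and 0.0154. Slc25a15 also passed without DKO replicate 1 (adjusted p = 0.0419).

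Ass1 (ENSMUSG00000076441, chromosome 2, 31470207 to 31520672), which joins citrulline with aspartate, had 20, 547 and 207 reads in DKO replicates 1, 2 and 3, against 35419, 30801 and 25512 in Control. Asl (ENSMUSG00000025533, chromosome 5, 130011258 to 130029247), which splits argininosuccinate into arginine and fumarate, had 40, 174 and 141 reads in DKO replicates 1, 2 and 3, against 8341, 8619 and 6852 in Control. Arg1 (ENSMUSG00000019987, chromosome 10, 24915221 to 24927484), the arginase that releases urea, had 17, 556 and 709 reads in DKO replicates 1, 2 and 3, against 28546, 31965 and 31022 in Control. Arg1, like Nags and Gls2, had more reads in replicate 3 than in replicate 2, in a library of more reads. At rank 41 in DKO replicate 3 it stood within its Control ranks of 40 to 65. The log2 fold changes were -2.78 (SE 1.46) for Ass1, -2.09 (SE 1.06) for Asl and -2.25 (SE 1.45) for Arg1, with adjusted p of 0.142, 0.130 and 0.216 in edgeR's test, so none passed. Without DKO replicate 2 the log2 fold changes were -4.60, -2.96 and -2.97 with adjusted p of 0.0252, 0.0298 and 0.135. Asl passed also without DKO replicate 1 (adjusted p = 0.0390).

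Other genes could add to or take from these counts. The pseudogene Gm5424 matches Ass1 over 1240 bases at 99.5% identity and had 26, 10 and 34 reads in DKO replicates 1, 2 and 3 against 578 to 979 in Control. In DKO replicate 1 it thus held more reads than the 20 of Ass1, whereas it held few beside Ass1 in Control. Arg1 is also a gene of macrophages. The 6 Kupffer cell markers summed to 9, 58 and 108 reads in DKO replicates 1, 2 and 3 and to 29.1, 110.5 and 72.4 CPM, against 160.0 to 219.5 CPM in Control, and 3 of the 6, Clec4f, Vsig4 and Marco, were at 0 in DKO replicate 1. Their part in the Arg1 reads was not tested. Kidney tubules use Ass1 and Asl too. The 4 kidney tubule markers had 11, 7 and 37 reads in DKO replicates 1, 2 and 3, where 22.7, 17.1 and 41.6 were expected from background, against 0 to 3 in Control. Enterocytes use Cps1 and Otc, and their 4 markers had 15, 32 and 45 reads in DKO replicates 1, 2 and 3 against 1426 to 1507 in Control, where nearly all came from Fabp2. The paralog Arg2, the mitochondrial arginase, had 2, 0 and 0 reads in DKO-labelled libraries against 6, 5 and 1 in Control, and was too low to test.

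Gls2 (ENSMUSG00000044005, chromosome 10, 128194457 to 128210004), the liver-type glutaminase that frees ammonia from glutamine in periportal hepatocytes, had 7, 33 and 58 reads in DKO replicates 1, 2 and 3, against 3492, 3870 and 3612 in Control. Its TMM-scaled level was 42.8 ± 29.5 CPM in DKO-labelled libraries and 331.5 ± 57.4 CPM in Control (SD, n = 3 each). Gls2 fell with a log2 change of -2.95 (SE 0.98, adjusted p = 0.0351 in edgeR's test), the largest of the 8 in size. Spryd4 overlaps Gls2 on the opposite strand and had 0, 16 and 5 reads in DKO-labelled libraries against 359 to 614 in Control.

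Of the 8 genes 2 were called lower and 0 higher, beside 12.8% of all 15561 tested genes called lower and 31.3% called higher. Among the 3206 tested genes with a mean of at least 50 TMM-scaled CPM in Control, which all 8 genes exceeded (a comparison added after the results were seen), 22.4% were called lower and 0.281% higher. The median log2 fold change of the 8 genes was -2.38, against -0.08 over all tested genes and -2.10 over those 3206. The share called and the median therefore lay near those of other genes of like level. Scaling on 160 abundant liver genes, which moved the median of all genes to 4.68, against -0.08 with TMM, gave the 8 genes a median of 1.18 and turned 7 of the 8 log2 fold changes above 0, and Cps1 alone stayed below at -0.63. Relative to the median of all genes, the median of the 8 genes stood at -3.5 on that log2 scale and at -2.3 with TMM.

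The calls of Nags and Gls2 rested on each Control library. Without Control replicate 1, 2 or 3 the adjusted p was 0.0843, 0.0865 and 0.0781 for Nags and 0.0874, 0.0944 and 0.0972 for Gls2, and both were also lost after subtraction of background reads (0.115 and 0.155). Conversely, DESeq2 called 8 of the 8 genes lower, where it called 17.7% of its tested genes lower. Leaving out DKO replicate 2 called 7 of 8 lower beside 26.7% of genes. Shares among genes of like level were not taken for these settings. In the lists described below, each of the 2 settings called lower 12 of 14 genes of amino acid breakdown. Each also called lower 7 of 9 other periportal markers, and of 10 regulators DESeq2 called 5 and the other setting 7. Against the 3 Control libraries, each DKO-labelled library taken alone gave 8 of 8 lower, beside 44.9%, 28.6% and 33.8% of genes called lower for replicates 1, 2 and 3. There the lone library is assumed to vary as the Control libraries do, with a biological coefficient of variation of 18.8%, against 63.9% over all 6 libraries, so these calls are no support for a lower level in the DKO group. The share of genes called lower was 22% without DKO replicate 1 (4 of the 8 genes) and 12% without DKO replicate 3 (2 of 8), and 4.05%, 4.28% and 4.13% without Control replicates 1, 2 and 3 (0 of 8 each). Under other settings it was 23% with size factors of DESeq2 (3 of 8), 15.7% with upper-quartile normalization (2), 9.24% with library sizes alone (1), 0.546% on the abundant-gene scale (0), 15.4% without a filter (7) and 13.5% with at least 1 CPM in 3 libraries (2). It was 9.77% with limma-voom (1), 20.8% after background subtraction (0), 14.1% without mitochondrial transcripts (2) and 3.28% at an adjusted p of 0.01 (0).

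Per length, the order of the 8 genes in Control differed between libraries at the top, where Ass1 led in Control replicate 1 and Arg1 in Control replicates 2 and 3. In CPM per kb of exon over all gene reads (RPKM), Arg1 stood at 988.6 ± 165.0, Ass1 at 898.9 ± 36.0, Cps1 at 566.5 ± 17.6, Otc at 135.6 ± 18.4, Asl at 117.3 ± 9.71, Gls2 at 75.9 ± 11.1, Slc25a15 at 58.5 ± 1.68 and Nags at 17.7 ± 0.946 in Control (SD, n = 3). Arg1 and Ass1 overlapped between libraries, and so did Otc and Asl, while the other neighbours in that order did not. DKO replicate 2 had 475.3 RPKM for Arg1, 431.6 for Ass1, 317.5 for Cps1, 80.4 for Otc and 68.6 for Asl, then 37.9 for Slc25a15 ahead of 18.1 for Gls2, and 8.72 for Nags. Its order thus exchanged Slc25a15 and Gls2 and was otherwise that of the Control means. DKO replicate 3 had Arg1 first at 213.4 RPKM and Ass1 next at 57.5, but Cps1 at 9.54 stood below Asl at 19.6 and Gls2 at 11.2. In DKO replicate 1 the levels lay between 5.81 RPKM for Cps1, the lowest there, and 26.7 for Ass1 and Asl.

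The make-up of the reads of the 8 genes does not depend on how libraries are scaled. Cps1 made up 7.75%, 36.5% and 5.95% of these reads in DKO replicates 1, 2 and 3, against 36.1%, 32.4% and 33.1% in Control. Arg1 made up 13.2%, 21.9% and 53.4% in DKO replicates 1, 2 and 3, against 20.3%, 24.4% and 26.0% in Control. For both genes replicate 2 stood in or next to the Control range, while replicate 3 was low for Cps1 and high for Arg1. Asl took 31.0%, 6.85% and 10.6% in the DKO-labelled libraries against 5.75% to 6.59% in Control, and Slc25a15 took 16.3%, 4.41% and 4.45% against 3.37% to 3.84%. These were the 2 genes whose shares did not overlap between the groups, both higher in DKO-labelled libraries, by 10.1 and 4.83 percentage points (p = 0.1 each in two-sided exact permutation tests, adjusted p = 0.4 over 8 genes). The remaining 6 shares overlapped, among them that of Ass1 at 15.5%, 21.5% and 15.6% in DKO-labelled libraries against 21.4% to 25.2% in Control. Of the 28 ratios between pairs of genes 6 did not overlap between the groups, and the smallest adjusted p over the 28 was 0.467. Background reads expected in DKO replicate 1 were 7.36 of the 40 reads of Asl and 10.2 of the 21 of Slc25a15, against 4.05 of the 17 of Arg1, and their part in these shares was not tested.

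**Figure D2:**
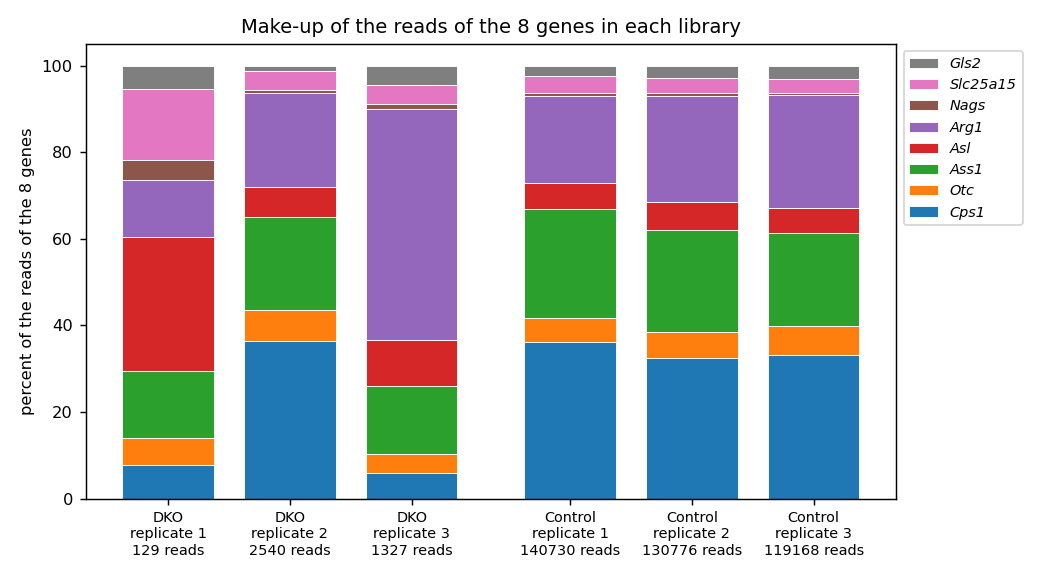
Percent of the reads of the 8 genes that each gene holds (stacked bars), in the 3 DKO-labelled libraries on the left and the 3 Control libraries on the right, with the total reads of the 8 genes under each bar. DKO replicate 2 resembles the Control bars, DKO replicate 3 is led by Arg1 with 53.4%, and DKO replicate 1 rests on 129 reads.

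Each DKO-labelled library was also set against its own abundant liver transcripts. For each gene the reads expected were its Control mean times the median ratio of 160 abundant liver genes (nuclear protein-coding genes with over 30000 reads over the Control libraries, the 8 genes left out), plus the background reads expected from genes silent in Control. The median ratio was 0.0245%, 1.85% and 0.490% of the Control mean in DKO replicates 1, 2 and 3. Around it the abundant genes had an SD of 2.34, 0.298 and 1.41 on the log2 scale, so DKO replicate 2 gave the most even picture. Background is a mean over genes with a wide spread, and most single silent genes lay below it. Of silent genes with at least 3 expected reads, 34.3% to 50.5% had none. Their median was 0, 0.24 and 0.25 times the expected background in DKO replicates 1, 2 and 3. The 1659 olfactory and vomeronasal receptor genes had 685, 722 and 1606 reads in DKO replicates 1, 2 and 3 where 3609, 2528 and 6862 were expected.

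In DKO replicate 2 the urea cycle genes kept nearly the proportions of Control, except for Gls2, while Nags was not resolved. Cps1 had 926 reads (exact 95% Poisson interval 867.3 to 987.6) where 822.2 were expected, Ass1 547 (502.1 to 594.8) where 567.4 were expected, and Arg1 556 (510.7 to 604.2) where 565.7 were expected. Less background, Cps1 stood at 1.13 times, Asl at 1.15 times and Slc25a15 at 1.23 times the liver expectation. The reads of Cps1, Otc and Slc25a15 exceeded the expectation beyond counting error. All of these ratios lay inside the middle of the abundant genes, whose 10th to 90th percentiles ran from -0.35 to 0.35 on the log2 scale. Gls2 had 33 reads (22.7 to 46.3) where 72.0 were expected. Less background it stood at 0.423 times the liver expectation, and 0 of the 160 abundant genes had a lower ratio. Gls2 itself has fewer reads than those genes, so its ratio carries more counting error, and its Control libraries ran from -0.22 to 0.16 on the same log2 scale. Nags, at -0.56, also lay below the 10th percentile, and 5 of the 160 abundant genes had a lower ratio. With 13 reads (6.92 to 22.2) where 17.2 were expected, it could not be told from the expectation at this depth. A low ratio in this library was not particular to Gls2 among the wider nitrogen genes described below. Prodh had 10 reads where 32.7 liver and 10.1 background reads were expected. Gldc had 16 (22.5 and 7.92 expected) and Gpt 52 (104.2 and 4.27). Others lay near their expectation, such as Glul with 232 (209.6 and 4.84).

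DKO replicate 3 split the cycle. Arg1 had 709 reads (657.8 to 763.2) where 156.1 were expected, 4.70 times the liver expectation less background, and 155 of the 160 abundant genes had a lower ratio. Cps1 had 79 reads (62.6 to 98.5) where 230.9 were expected, 0.298 times the liver expectation, and 14 of 160 genes had a lower ratio. Thus the first and the last enzyme of the cycle lay at opposite ends of the abundant genes of that library. Asl stood at 3.22 times and Gls2 at 2.60 times the liver expectation, Ass1 at 1.33 times and Otc at 1.31 times. The reads of 5 genes lay above their expectation beyond counting error, those of Cps1 below it, and those of Otc and Nags within it. The abundant genes of this library ran from -7.04 to 3.21 on the log2 scale, so ratios of this size occurred among them too.

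In DKO replicate 1 the 8 genes had 6 to 40 reads each, and 4 of them did not exceed the expected background beyond counting error. Cps1 had 10 reads (4.80 to 18.4) where background alone gave 8.81 and the liver transcripts another 10.8. Asl had 40 reads (28.6 to 54.5) and Slc25a15 21, where 9.30 and 11.4 were expected in all. Ass1 had 20 reads (12.2 to 30.9) where 11.2 were expected. Given the spread of background between genes, the levels of single genes in this library were not resolved at this depth. Poisson intervals cover counting error only, since the reads carry no molecular identifiers.

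**Figure D3:**
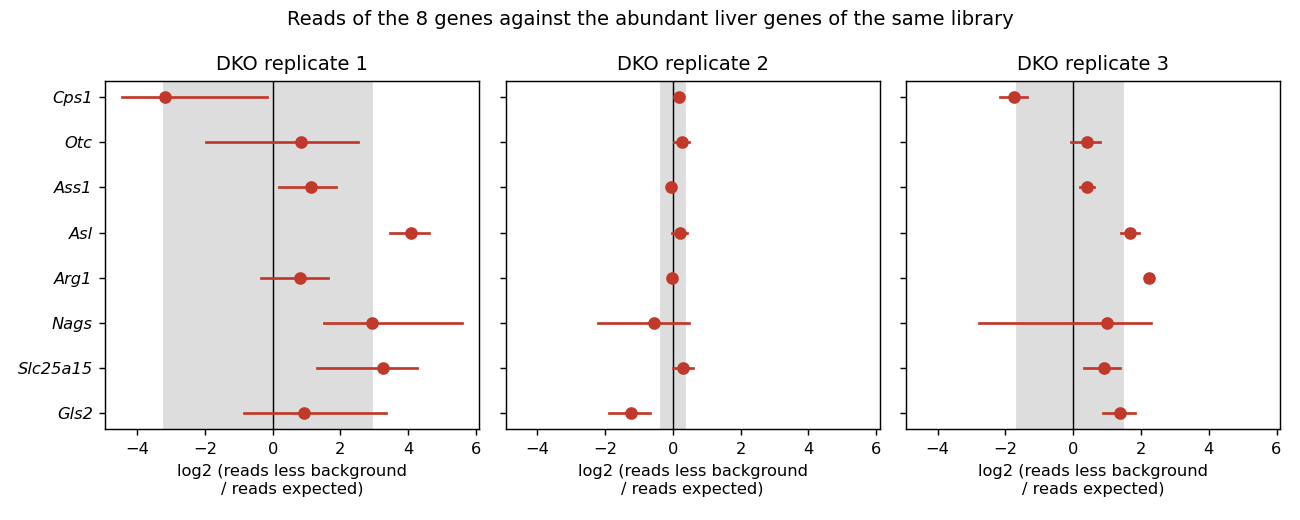
Log2 ratio of reads less expected background to the reads expected from the abundant liver genes of the same library, for the 8 genes in each DKO-labelled library; points are ratios, lines exact 95% Poisson intervals of the reads, and the grey band the 10th to 90th percentile of the 160 abundant genes. In DKO replicate 2 Gls2 lies left of the band at -1.24, and so does Nags at -0.56, on 13 reads. In DKO replicate 3 Cps1 lies left of the band at -1.74, with Asl at 1.69 and Arg1 at 2.23 right of it.

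The balance between the periportal genes and pericentral glutamine synthetase varied between the DKO-labelled libraries. The 8 genes had 5.86, 10.9 and 73.7 reads per Glul read in DKO replicates 1, 2 and 3, against 12.5, 10.7 and 11.3 in Control, a ratio chosen after its values were seen. DKO replicate 2 lay within the Control range, replicate 1 below it and replicate 3 above it (two-sided p = 0.9, exact permutation). In DKO replicate 3 Glul had 18 reads, and Cps1 had 4.39 reads per Glul read against 3.46 to 4.52 in Control, whereas Arg1 had 39.4 against 2.54 to 2.93. Of those 18 Glul reads 12.0 were expected from background. Less background, DKO replicate 3 had 206 reads of the 8 genes, 10.8 of Cps1 and 117 of Arg1 per Glul read. By that value Cps1 too lay above its Control range, but few Glul reads remain after the subtraction. Silent genes of that library ran from 0 to 2.7 times their expected background (10th to 90th percentile). Ratios to Glul less background are therefore not resolved in DKO replicate 3. In DKO replicate 1 the ratio of Cps1 was 0.455, and 0.0667 less background. The 8 genes had 1.29, 1.04 and 4.45 reads per read of 9 pericentral markers in the DKO-labelled libraries, against 0.912 to 1.08 in Control (p = 0.2, exact permutation test). Cyp2e1 led these markers in Control (73700 to 92746 reads) and in DKO replicate 2 (1478 reads). In DKO replicate 1 Axin2 led with 35 reads beside 4 of Cyp2e1, and in DKO replicate 3 Tbx3 led with 152 beside 24. That ratio therefore does not set the 8 genes against the same pericentral transcripts in each library.

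In the wider nitrogen pathways most log2 fold changes lay below 0, and few genes passed the test. Over 8 lists of 69 different genes 67 were tested, 7 were called lower and 2 higher, beside 12.8% and 31.3% of all tested genes, and 56 had a log2 fold change below 0. Of the 51 list genes with a mean of at least 50 TMM-scaled CPM in Control, 49 lay below 0 and 6 were called lower, beside 95.01% below 0 and 22.4% called lower among all 3206 tested genes of that level. The counts of the lists were thus close to or under those of other genes of like level. Among genes of mitochondrial nitrogen entry and its carriers 1 of 10 was lower and 0 higher, with a median of -2.21. The one that fell was Sirt3, a mitochondrial deacetylase, with a log2 change of -3.02 (SE 1.00, adjusted p = 0.0343). Glud1, the glutamate dehydrogenase that releases ammonia in the matrix, had one of -2.35 (adjusted p = 0.149), Got2, the mitochondrial aspartate aminotransferase, -2.79 (0.184), and Gpt2, the mitochondrial alanine aminotransferase, -2.33 (0.128). Got2 had 0, 145 and 16 reads in DKO replicates 1, 2 and 3, against 7223, 7174 and 6058 in Control.

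Amino acid breakdown had 3 of 14 genes lower, 0 higher and a median of -2.55. Prodh, the proline dehydrogenase, had 4, 10 and 11 reads in DKO replicates 1, 2 and 3, against 1284, 2232 and 1793 in Control, and fell with a log2 change of -3.85 (SE 0.78, adjusted p = 0.00317). Gldc, the glycine decarboxylase, fell by 3.00 on the log2 scale (adjusted p = 0.00848), and Got1, the cytosolic aspartate aminotransferase, by 3.16 (adjusted p = 0.0317). The histidine enzymes Uroc1 and Ftcd had log2 changes of -2.38 and -2.66, and Gpt, the cytosolic alanine aminotransferase, one of -3.77, none past the threshold (adjusted p = 0.0812, 0.139 and 0.0659). The Prodh and Gldc calls held without any single library. After background subtraction Prodh still passed, at a log2 change of -12.9, but its reads did not exceed the 14.25, 10.1 and 25.8 expected from background, so its size there is not resolved. The calls of Gldc, Got1 and, from the other lists, Sirt3, Agmat and Gamt were lost after background subtraction (adjusted p = 0.130, 0.252, 0.240, 0.242 and 0.258).

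Of 8 transport genes 0 passed in either direction (median -2.40). Slc38a3, a glutamine transporter of hepatocytes, had 2, 404 and 58 reads in DKO replicates 1, 2 and 3 against 24171 to 27922 in Control, and a log2 change of -3.21 (adjusted p = 0.149). Among 4 genes of pericentral ammonia capture 0 passed (median -2.81), with Glul at -2.79 (adjusted p = 0.125) and Oat, the ornithine aminotransferase, at -3.22 (0.0685). Of 7 tested genes on other arginine and ornithine routes 2 were lower and 0 higher (median -2.48). Agmat, named as an agmatinase, and Gamt, the last enzyme of creatine synthesis, fell by 3.40 and 3.45 on the log2 scale (adjusted p = 0.0461 and 0.0412).

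Regulators of urea cycle genes had 1 of 10 higher and 0 lower (median -2.27). Ppargc1a, the fasting coactivator PGC-1α, rose with a log2 change of 2.81 (SE 0.96, adjusted p = 0.0386). Its reads numbered 46, 1 and 69 in DKO replicates 1, 2 and 3, against 91, 62 and 65 in Control, and the call was lost without DKO replicate 3 (adjusted p = 0.0744) and without each Control library (0.126 to 0.137). The hepatocyte transcription factors Cebpa and Hnf4a had log2 changes of -2.52 (adjusted p = 0.205) and -2.55 (0.152). Other periportal markers had 1 of 9 lower (median -2.82), the lipid carrier Mfsd2a at -3.09 (adjusted p = 0.00381). Against 414 to 684 reads in Control, Mfsd2a had 3, 4 and 6 in DKO replicates 1, 2 and 3. Background alone was expected to give 4.11, 2.93 and 7.45 there, so the size of its fall is not resolved. Pck1, the gluconeogenic enzyme, had a log2 change of -3.03 (adjusted p = 0.155). Pericentral markers had 1 of 9 higher and 0 lower (median -2.92), the Wnt target Axin2 at 2.51 (adjusted p = 0.0143). Axin2 had 35, 18 and 13 reads in DKO replicates 1, 2 and 3, where 8.39, 7.05 and 18.01 were expected from background, against 90, 45 and 45 in Control, and after background subtraction neither Axin2 nor Ppargc1a passed (adjusted p = 0.266 and 0.168). Of the 9 called genes, Prodh, Gldc and Mfsd2a passed without each Control library in turn and the others did not, and scaling on abundant genes ended all 7 of the lower calls.

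**Figure D4:**
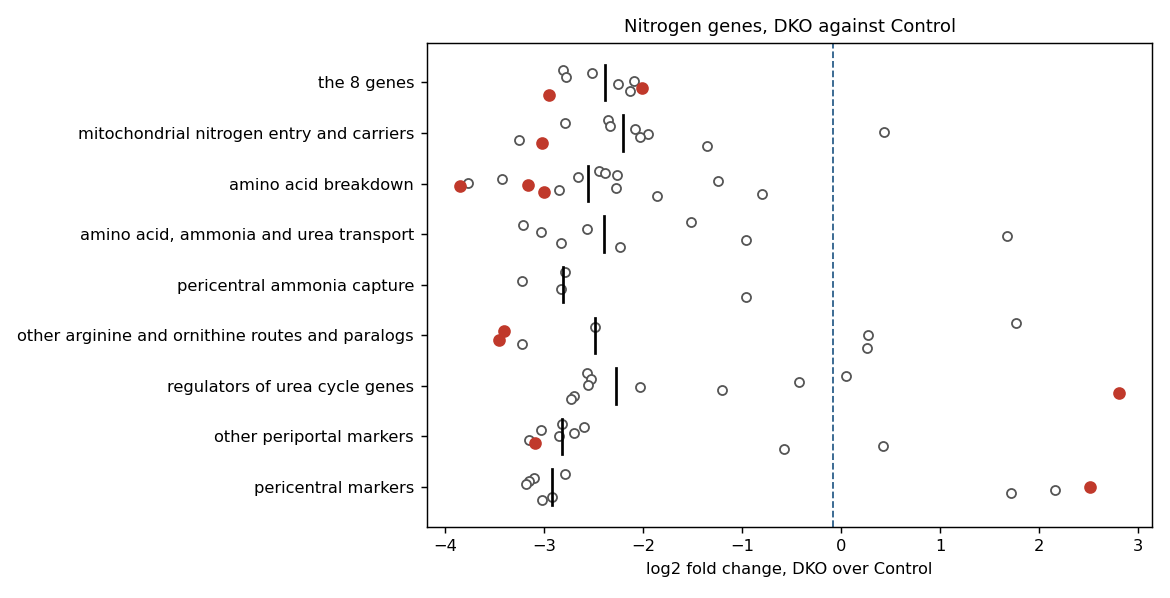
Log2 fold change, DKO-labelled over Control, of the 8 genes (top) and of the tested genes of 8 nitrogen gene lists; filled points have adjusted p under 0.05, black bars are list medians and the dashed line is the median of all tested genes at -0.08. The median of the 8 genes at -2.38 lies among list medians of -2.21 to -2.92.

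Likeness of pattern was measured as the root mean square distance between profiles over the 6 libraries, on log2(TMM CPM + 0.5) less the Control mean, among 3086 protein-coding genes of at least 50 CPM in Control. Nearest to the mean of the 8 genes were Hsd17b13, a lipid droplet enzyme of hepatocytes, at 0.084, Abhd17a at 0.106, Cpt2, an enzyme of mitochondrial fatty acid import, at 0.124, Ccl9 at 0.142 and Zdhhc6 at 0.144, where the median gene lay at 1.13. Hsd17b13 is also on the list of other periportal markers and had 8, 91 and 60 reads in DKO replicates 1, 2 and 3, against 6053, 5207 and 4470 in Control. Nearest to Cps1 were Ndufa8, a subunit of respiratory complex I, at 0.132, Mlec at 0.186 and the major urinary protein gene Mup3 at 0.214, where the median gene lay at 2.03. Mup3 had 44, 3922 and 438 reads in DKO replicates 1, 2 and 3, against 186459, 164611 and 177163 in Control. Some of the other near profiles rested on few reads. Ndufa8 had 0, 38 and 3 reads and Mlec 0, 41 and 4 in DKO replicates 1, 2 and 3. Abhd17a and Zdhhc6 had 1 read each in DKO replicate 1.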

How the data were processed

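RNA-seq was analysed in 6 mouse liver libraries, 3 labelled DKO and 3 Control, grouped and numbered by their titles. The deposited values are raw read counts per Ensembl gene ID, per the submitters' processing notes, which name STAR, HTSeq and mm10. Not given in the sources used here were versions, kit, strand setting and annotation release. The 5 rows that name no gene held 95.3% to 97.3% of reads in DKO and 65.1% to 66.7% in Control and were left out throughout. Names, positions and exonic lengths came from GENCODE M21 (42462 IDs matched). The 2 listed symbols Ca5a and Tf were matched through RefSeq synonyms to Car5a and Trf.

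The test was edgeR 4.0.16's quasi-likelihood test (R 4.3.3, robust, TMM, filterByExpr by group, two-sided, no covariates, Benjamini-Hochberg adjusted p under 0.05 over all genes). SE is the absolute log2 fold change over the square root of F. Background per kb was estimated in 10 GC bins from the 8600 protein-coding genes whose Control counts summed to 10 or less. Single values per library were compared by exact permutation. Near-identical transcripts were sought with BLAST 2.17.0 (at least 95% identity over 100 bases). No libraries were identical or agreed within sampling noise. Fits were tested on simulated data with the spread of the Control libraries and no background reads. That test therefore does not cover the wider spread and the background of the DKO-labelled libraries. Alternatives were DESeq2 1.42.0, limma-voom (limma 3.58.1), other scalings and filters, a replicate block, background subtraction and leaving out libraries. Named genes were the 8 genes, called list members or otherwise those highest in Control, the targeted genes, the paralog Arg2, and the likest profiles. The values of 1 further listed gene are not reported here. The genes and lists were chosen with earlier results of these data known.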

Additional observations from a re-analysis of the deposited data

Results flagged for a closer look

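Reads that aligned uniquely but were assigned to no annotated gene made up 66.7% ± 6.44 of all reads in DKO-labelled libraries. In Control they made up 38.9% ± 1.51 (SD, n = 3 each), so the DKO-labelled libraries lay above the level of the Control libraries. No comparison used these reads, and their place relative to genes was not tested.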

How the results depend on the processing

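Over 21 alternatives and the fit as reported, the median log2 fold change of the 8 genes lay below that of all tested genes each time. The difference was -0.78 (background subtracted) to -5.6 (DESeq2) on the log2 scale, and the alternative of an adjusted p of 0.01 used the same fit. In DESeq2 the median of all genes was 2.91 and that of the 8 genes -2.69. Genes of at least 50 TMM-scaled CPM in Control had a median of -2.10 in the fit as reported. Medians at like level were not taken for the alternatives. The median of the 8 genes was -2.38 as reported, 1.18, with the sign turned, on the abundant-gene scale, and -5.62 with DKO replicate 1 alone. On the abundant-gene scale the log2 fold changes turned to 0.61 for Otc, 0.27 for Ass1, 2.33 for Asl, 1.09 for Arg1, 2.75 for Nags, 2.13 for Slc25a15 and 1.26 for Gls2, and no other alternative turned a sign. The number of the 8 genes called lower was 2, and it was 1 without normalization beyond library size and with limma-voom, 0 on the abundant-gene scale, after background subtraction, at an adjusted p of 0.01 and with the replicate block, 7 without a filter on low counts and 8 with DESeq2 and with DKO replicate 1, 2 or 3 alone. Leaving out 1 library gave 0 to 7. Over all genes 4871 were called higher and 1992 lower. The higher ones became 9735 on the abundant-gene scale, 11477 without a filter, 8830 with DESeq2 and 2301 after background subtraction. The lower ones became 85, 4650 and 4133 in the first 3 of these, 3577 with DESeq2's size factors, 511 at an adjusted p of 0.01, and 7013, 4374 and 5716 with DKO replicates 1, 2 and 3 alone, and ranged from 567 to 4492 without 1 library. The cause of these changes was not tested. Numbers shared between the groups mark no stated pairing: same-numbered libraries had correlations of deviations of 0.142, 0.0880 and -0.00845 for numbers 1, 2 and 3, so the replicate block, with 0 of the 8 genes but 2179 genes (14% of those tested) called lower (adjusted p = 0.0574 for Nags, 0.0559 for Gls2), is reported only as an alternative. The median level of the 8 genes against abundant liver genes was 1.03, 0.0739 and 0.951 on the log2 scale in DKO replicates 1, 2 and 3. It became 1.68 and 0.517 in replicates 1 and 3 with abundant genes over 10000 Control counts, and 1.58, 0.0570 and 1.38 in replicates 1, 2 and 3 with background kept. Taken from 1 Control library it was 1.16 (Control 1) and 0.969 (Control 2) in DKO replicate 1, 0.144, 0.0279 and 0.0539 (Control 1, 2 and 3) in replicate 2, and 0.822 (Control 1) and 0.990 (Control 3) in replicate 3. The smaller share of reads held by the 8 genes kept its direction, at -0.712 percentage points over nuclear genes and -0.704 after background subtraction. Depth limits DKO replicate 1 most, where 129 reads cover the 8 genes.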

Other observations

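Bile duct markers (5 genes) summed to 326.1, 186.7 and 140.8 CPM in DKO replicates 1, 2 and 3, against 62.0 to 82.9 CPM in Control. Sox9 held 78 of 101, 67 of 98 and 126 of 210 of these reads in DKO replicates 1, 2 and 3, while Spp1, which led in Control with 745 to 1117 reads, had 9, 24 and 13. Background was expected to give 30.5, 22.2 and 54.7 of the DKO reads. Sinusoidal endothelial markers (5 genes) summed to 758.7, 219.0 and 142.8 CPM against 136.0 to 255.3 CPM. Pecam1 held 182 of 235, 44 of 115 and 82 of 213 of these reads in DKO replicates 1, 2 and 3. Clec4g, which led in Control with 704 to 1418 reads, had 0, 11 and 29. Background was expected to give 55.7, 40.5 and 100.7 of the endothelial reads in the DKO-labelled libraries. Stellate markers (5 genes) summed to 332.5, 156.2 and 152.9 CPM against 229.6 to 366.7 CPM. Blood markers (6 genes) summed to 261.5, 565.7 and 205.2 CPM against 241.3 to 255.1 CPM. Olfactory and vomeronasal receptor genes, 1659 genes of sensory neurons of the nose, summed to 2212, 1375 and 1077 CPM in DKO-labelled libraries, against 10.7 to 16.1 CPM in Control. Their 685, 722 and 1606 reads in DKO replicates 1, 2 and 3 lay below the 3609, 2528 and 6862 expected from background, so the background estimate is several times too high for these genes.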
